A study of Mus musculus with 14 samples.

Results

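Divergent coding gene pairs are neighbouring protein-coding genes on opposite strands that point away from each other and so share the stretch of DNA between their starts. In the GENCODE annotation of the mouse genome (release M21, build GRCm38/mm10), 754 pairs had 5′ ends under 1000 bp apart without overlapping, and they comprised 1487 of the 21938 coding genes on chromosomes 1 to 19, X and Y. Of the 122228 H3K27ac sites identified across all samples, 1160 (0.949%) overlapped the span between the 5′ ends of a pair or the 1 kb inside either gene. H3K27ac was mapped by ChIP-seq in immortalised mouse embryo fibroblasts (iMEF), a line of clonal origin grown out by limiting dilution. In all of these cells exon 4 of the endogenous Ash2l gene had been deleted with 4-hydroxytamoxifen, and ASH2L, the H3K4 methyltransferase cofactor, was supplied from a lentivirus as the human protein fused to FKBP12 F36V and an HA tag (FKBP-HA2-ASH2L), which the compound dTAG-13 targets for degradation. The 12 H3K27ac libraries were 2 each of untreated control cells and of cells treated with dTAG-13 for 30 min, 2 h, 4 h, 8 h and 16 h, beside 1 input library each of control cells and of cells treated for 16 h.

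The list of sites joins all samples and gives a position for each site, with no height and no value per sample. Accordingly, all values below describe where H3K27ac was found at any of the times, no change with dTAG-13 can be read from them, and no significance test was possible. Shares are given with 95% Wilson intervals, which cover counting error only, and cover, meaning the percent of bases that lie in a site, is given with the spread between chromosomes (SD, n = 20). The 20 chromosomes and the pairs are no biological replicates, and sequencing depth is unknown from positions. As a limited check of the cell label, all 7 fibroblast genes examined (Col1a1, Col1a2, Col3a1, Vim, Thy1, Pdgfrb and Fn1) had a site within 1 kb of the 5′ end. None of 7 genes of other cell types (Alb, Ptprc, Cdh1, Epcam, Pecam1, Gfap and Myod1) had one, and 51.6% of all coding genes did. Cover at Col3a1 was small, with 380 bp inside the gene and 74 bp upstream.

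In divergent promoters, RNA polymerase II starts in both directions from a stretch of open DNA that both genes share. Such promoters are often CpG islands, and many serve housekeeping genes such as those for DNA repair, mitochondrial proteins and the core histones. H3K27ac is an acetyl mark on the tail of histone H3 that is laid down by CBP and p300 at active promoters and enhancers, and because it sits on nucleosomes it is usually found beside the nucleosome-depleted start sites rather than over them.

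The arrangement is visible in the sequences between well-known divergent genes. The spans below run 5′ to 3′ on the plus strand of GRCm38/mm10 from the base after the 5′ end of the minus strand gene, named first, to the base before the 5′ end of the plus strand gene, and capitals mark the bases that lie in an H3K27ac site. They were chosen to show sites with a bare stretch between them, spans that lay within 1 site and spans with no site. They lie at chr11:101551956-101552148 (Brca1/Nbr1), chr7:28741821-28741991 (Mrps12/Sars2), chr13:23571221-23571395 (Hist1h2ae/Hist1h2bg), chr13:23574197-23574380 (Hist1h2bf/Hist1h2ad), chr14:50924894-50924967 (Osgep/Apex1), chr11:69580256-69580358 (Wrap53/Trp53), chr1:82586850-82586920 (Col4a4/Col4a3), chr10:7681137-7681213 (Pcmt1/Lats1) and chr17:48409907-48410013 (Nfya/Oard1), each upstream of both genes and free of annotated exons.
Brca1/Nbr1: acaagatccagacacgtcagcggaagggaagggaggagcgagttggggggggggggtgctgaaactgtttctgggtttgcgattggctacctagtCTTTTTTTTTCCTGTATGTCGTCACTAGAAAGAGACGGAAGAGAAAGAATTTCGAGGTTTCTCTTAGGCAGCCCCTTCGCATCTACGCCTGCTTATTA
Mrps12/Sars2: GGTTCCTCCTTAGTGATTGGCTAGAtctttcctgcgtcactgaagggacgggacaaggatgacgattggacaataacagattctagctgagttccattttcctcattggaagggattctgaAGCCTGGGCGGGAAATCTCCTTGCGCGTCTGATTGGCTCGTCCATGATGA
Hist1h2ae/Hist1h2bg: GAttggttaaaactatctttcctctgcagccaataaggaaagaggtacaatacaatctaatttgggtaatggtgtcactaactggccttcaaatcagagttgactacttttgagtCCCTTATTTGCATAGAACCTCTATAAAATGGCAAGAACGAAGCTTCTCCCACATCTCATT
Hist1h2bf/Hist1h2ad: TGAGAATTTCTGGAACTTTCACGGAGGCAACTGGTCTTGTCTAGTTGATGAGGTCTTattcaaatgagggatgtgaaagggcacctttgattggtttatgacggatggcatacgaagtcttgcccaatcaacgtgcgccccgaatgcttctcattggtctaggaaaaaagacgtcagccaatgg
Osgep/Apex1: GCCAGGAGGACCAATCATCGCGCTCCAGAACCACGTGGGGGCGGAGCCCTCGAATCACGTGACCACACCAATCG
Wrap53/Trp53: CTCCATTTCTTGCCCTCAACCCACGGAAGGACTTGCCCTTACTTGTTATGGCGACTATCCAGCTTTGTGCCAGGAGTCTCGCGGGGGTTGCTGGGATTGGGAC
Col4a4/Col4a3: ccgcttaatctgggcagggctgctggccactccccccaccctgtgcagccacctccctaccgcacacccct
Pcmt1/Lats1: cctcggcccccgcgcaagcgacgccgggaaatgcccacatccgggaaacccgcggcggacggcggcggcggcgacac
Nfya/Oard1: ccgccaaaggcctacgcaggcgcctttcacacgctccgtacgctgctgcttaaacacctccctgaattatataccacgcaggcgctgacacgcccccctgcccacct

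The letters of the CCAAT box, which NF-Y binds, stood both in bare bases and in sites of these spans. Of 14 CCAAT matches (either strand) in these 9 spans, 8 lay in bare bases, 5 in sites and 1 across the edge of a site. These counts are not set against the number of bare bases and of bases in sites, so they show no difference in density. Between the mitochondrial ribosomal protein gene Mrps12 and the mitochondrial seryl-tRNA synthetase gene Sars2, 2 matches lay in the bare middle, at bases 65 to 69 and 105 to 109, and 1 in each of the flanking sites. All 4 matches between Hist1h2bf and Hist1h2ad lay in bare bases. Between Hist1h2ae and Hist1h2bg 1 match lay in bare bases and 1 across the edge of a site, at bases 2 to 6, whereas the TATAAA of this span, at bases 137 to 142, lay in the site on the Hist1h2bg side. In the span of Osgep and Apex1, which lay wholly in a site, 2 CCAAT matches and 1 GGGCGG were found.

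The same count was then made, after these spans had been seen, over all 244 pairs with sites in both genes and a span covered in part. Their spans held 33200 bare bases and 25060 bases in sites, of nearly equal GC content (59.5% and 58.9%). CpG was denser in the bare bases, with 77.9 per kb against 64.3 in sites. CCAAT occurred 265 times in the bare bases and 46 times in sites, or 7.98 and 1.84 times per kb. By chromosome the density was 7.78 ± 2.63 per kb in bare bases and 1.88 ± 1.81 in sites (SD, n = 20), higher in bare bases on 19 of 20 chromosomes. The difference was present at each distance from the nearer 5′ end, with 7.14 and 2.55 per kb within 50 bp of it, 8.80 and 2.31 at 51 to 100 bp and 8.15 and 1.06 farther away. Wholly bare spans flanked by sites held 7.19 CCAAT per kb, and spans within 1 site held 1.70. In pairs without a site the density was 2.84 per kb.

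The Sp1 letters GGGCGG were distributed less unevenly but were also denser in bare bases. They stood at 6.93 per kb in bare bases and 4.75 in sites of the part-covered spans, and were higher in bare bases on 16 of 20 chromosomes. Wholly bare spans flanked by sites held 9.56 per kb and spans within 1 site 5.36. The ETS letters CCGGAAG showed no such difference in the part-covered spans. They stood at 0.69 per kb in bare bases and 0.88 in sites, and were higher in bare bases on 9 of 20 chromosomes. The NRF1 letters GCGCANGCG were denser in bare bases of these spans, with 50 matches against 21 (1.51 and 0.84 per kb). Matches of other letters were few: TCTCGCGA had 7 in bare bases, 1 in sites and 6 across an edge, TATAAA 9 and 9, and the YY1 letters AAGATGGC 4 and 3. A match of letters does not show that a factor was bound, and whether NF-Y binding bears on the bare bases was not tested.

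A site was present at 694 of the 754 pairs (92.0%, 95% interval 89.9 to 93.8), against a background of 51.6% of all coding genes with a site within 1 kb of the 5′ end. Counted by gene, 1367 of 1487 genes of pairs (91.9%) had a site within 1 kb, compared with 9951 of 20451 other coding genes (48.7%), a difference of 43.3 percentage points (95% Newcombe interval 41.6 to 44.7). In pairs this window includes the 5′ end of the partner, so a site at the partner can count for both genes, here and in later shares by gene. Intervals by gene take partners as independent and are therefore too narrow. Most of the pairs had 1 or 2 sites (271 and 353 pairs), 70 pairs had more, and 33 of the 1160 sites fell to more than 1 pair because pairs shared a gene or lay close together. Sites at pairs were wider than the list as a whole, with a median of 837 bp against 401 bp. Their median was close to the 847 bp of the 13736 sites at other coding 5′ ends. Their widths were less spread, with a lower quartile of 571 bp against 475 bp and 8.45% against 12.5% of sites over 2000 bp.

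Between the 5′ ends, 47.7% of bases lay in sites on average over the 752 pairs with at least 1 base between them, compared with 65.9% of the 1 kb inside each gene. The mean difference was -18.1 percentage points, and by chromosome it was -18.8 ± 7.65 points (SD, n = 20), with less cover between than beside on all 20 chromosomes. At 950 to 999 bp inside the genes cover was only 26.9% to 35.8% in the classes of distance described below, so a stretch of the same length as the span was also measured just inside each gene. There 75.0% of bases lay in sites, and the difference widened to -27.3 points over pairs and -26.9 ± 6.66 points by chromosome, again negative on all 20. The sign depends on the flank: with 2 kb inside each gene in place of 1 kb, cover beside fell below cover between, by 8.07 points. Its size depends on how close calls were kept apart: with sites under 150 bp apart joined, cover between was 63.2% and the difference -3.46 points.

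The mean hides a split of the pairs. Of the 692 pairs with a site and a span, 270 (39.0%) had a wholly covered span, 152 (22.0%) a wholly bare one and the remainder a span covered in part. Set against the same length just inside the genes, the span was less covered at 376 pairs (54.3%, 50.6 to 58.0), equally covered at 273 (39.5%) and more covered at only 43 (6.21%, 4.65 to 8.27). The narrowest site was 200 bp, so that most spans could not hold a site of their own. In pairs 501 to 999 bp apart the span was more covered than the same length beside at 21 of 55 pairs with a site (38.2%, 26.5 to 51.4) and less covered at 27 (49.1%, 36.4 to 61.9).

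**Figure D1:**
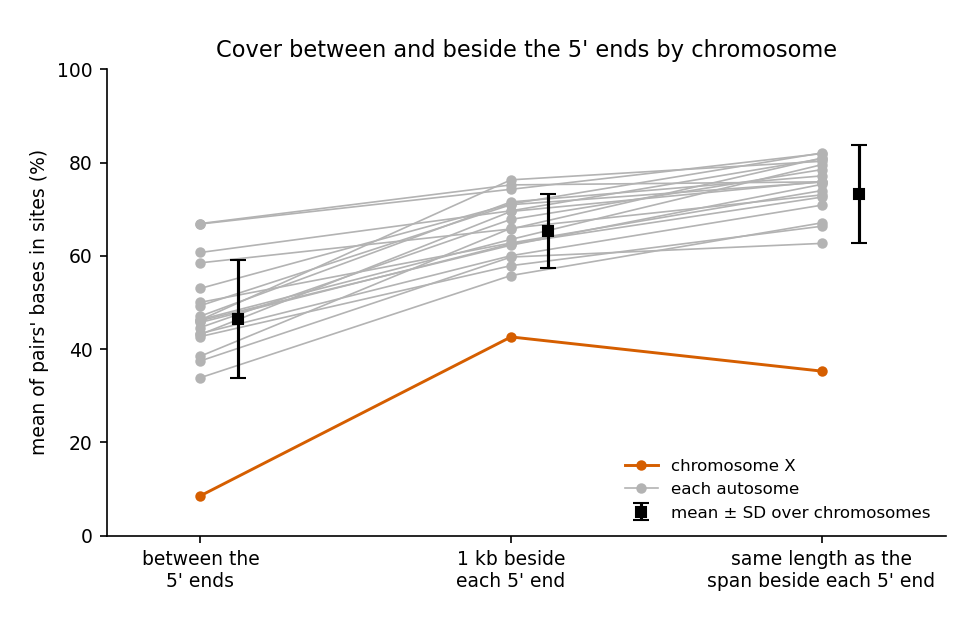
Cover by H3K27ac sites between the 5′ ends of divergent pairs, in the 1 kb beside each 5′ end and in a stretch beside each 5′ end as long as the span, as the mean over the pairs of each chromosome (percent of bases, circles joined by chromosome), with the mean ± SD over 20 chromosomes as squares. All chromosomes rise from between to beside, and chromosome X lies lowest, at 8.52% between and 42.6% beside.

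Each pair was then assigned to an arrangement. At 271 pairs (35.9%, 32.6 to 39.4) 1 site held both 5′ ends, a share that was 58.2% with sites under 150 bp apart joined. At 244 pairs (32.4%) sites lay in both genes and covered the span only in part, and at 121 pairs (16.0%) sites lay in both genes and the span was bare. A site lay beside 1 end only at 58 pairs (7.69%), and 60 pairs (7.96%) had none. Consequently, where H3K27ac was found at a pair it was found in both genes at 636 of 694 pairs (91.6%, 89.3 to 93.5). Counted by gene, 93.7% of genes of pairs with a site had sites both upstream and downstream of the 5′ end. The share was close to this in genes divergent from a non-coding gene (93.5%, difference 0.21 points, -1.95 to 2.65). It was 82.1% in genes of coding pairs 1 to 5 kb apart and 82.9% in single genes, with no other gene's 5′ end within 5 kb. Cover was 65.7% of 1 kb in the minus strand gene and 66.1% in the plus strand gene, and the plus strand side was the more covered at 361 of the 694 pairs (52.0%, 48.3 to 55.7) and the minus strand side at 299 (43.1%, 39.4 to 46.8). Within a pair the 2 sides were unequal by 26.7 ± 22.7 points on average (SD over 694 pairs with a site), and at 104 pairs they differed by 500 bp or more. Over these 694 pairs the correlation of the 2 sides was 0.10 (Pearson) and 0.12 (Spearman), and over all 754, of which 60 had no cover on either side, 0.44 and 0.30, across pairs of 1 list, which are not independent replicates.

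Arrangement changed with the distance of the 5′ ends. Of the 312 pairs 1 to 100 bp apart, 164 (52.6%, 47.0 to 58.0) had both ends in 1 site, compared with 49 of 206 (23.8%, 18.5 to 30.0) at 101 to 200 bp, 23 of 100 (23.0%, 15.8 to 32.2) at 201 to 300 bp, 18 of 66 (27.3%, 18.0 to 39.0) at 301 to 500 bp and 17 of 70 (24.3%, 15.8 to 35.5) at 501 to 999 bp. The step was therefore between the closest pairs and all others, and the intervals of the 4 wider classes overlap. A wholly bare span flanked by sites was seen at 68 (21.8%) of the closest pairs, at 36 (17.5%) and 15 (15.0%) in the next 2 classes and at 1 pair in each of the widest 2. Pairs 501 to 999 bp apart had sites less often (55 of 70, 78.6%, 67.6 to 86.6) than pairs 1 to 100 bp apart (298 of 312, 95.5%, 92.6 to 97.3), and only 21 of the 70 had CpG-rich windows at both ends, compared with 272 of 312.

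**Figure D2:**
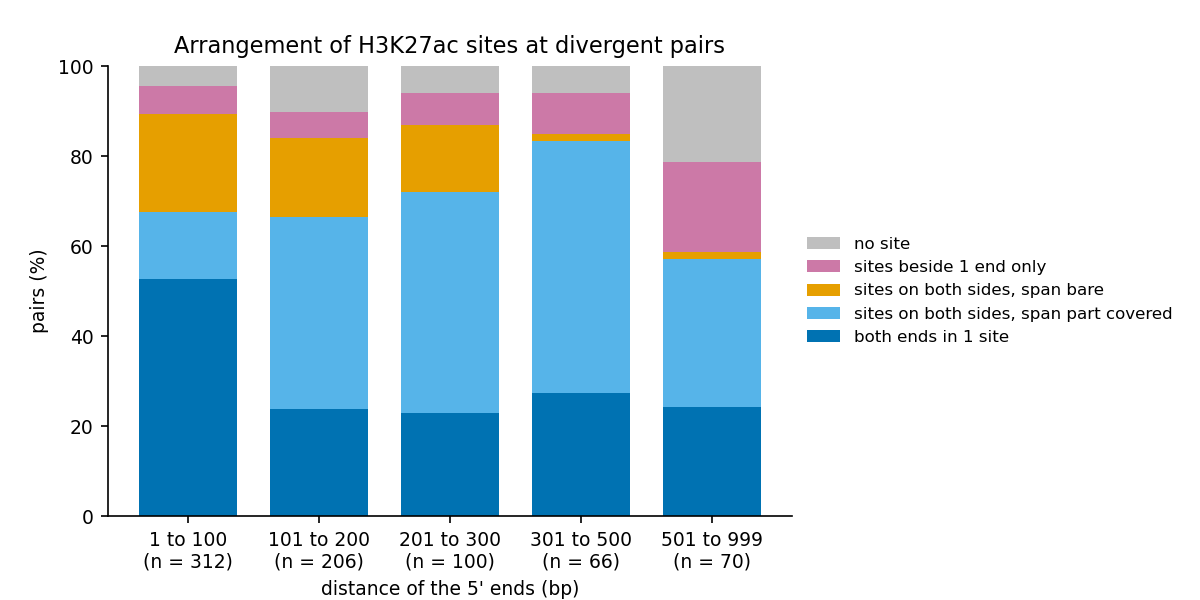
Share of pairs (percent) in each arrangement of H3K27ac sites, by the distance of the 5′ ends in bp, with the number of pairs under each bar. The share with both ends in 1 site is 52.6% in the closest class and between 23.0% and 27.3% in the others, and bare spans flanked by sites nearly vanish above 300 bp.

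Cover between the ends was lowest in pairs 101 to 200 and 201 to 300 bp apart, at 36.5% and 37.2%, against 56.1% in closer pairs, 57.2% at 301 to 500 bp and 49.7% at 501 to 999 bp. The difference from the same length beside was -16.1, -40.7, -48.3, -25.8 and -8.63 points from the closest to the widest class. The SD over pairs was 27.1 to 38.1 points in each class, so single pairs overlapped widely between classes. Along the span, cover at 101 to 200 bp fell to 29.0% of bases in the middle and at 201 to 300 bp to 26.0%, between shoulders of 83.0% to 90.8% at 200 to 249 bp inside the genes. In pairs 501 to 999 bp apart the profile had a dip beside each end and a rise between them: with the span cut into 10 equal parts, cover was 43.5% in the second, 55.7% in the sixth and 44.5% in the ninth. At 301 to 500 bp a shallower dip lay on the minus strand side, with 51.6% in the second part and 59.0% in the fifth. On the plus strand side cover was nearly level, at 56.8% in the sixth part and 56.3% in the ninth.

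**Figure D3:**
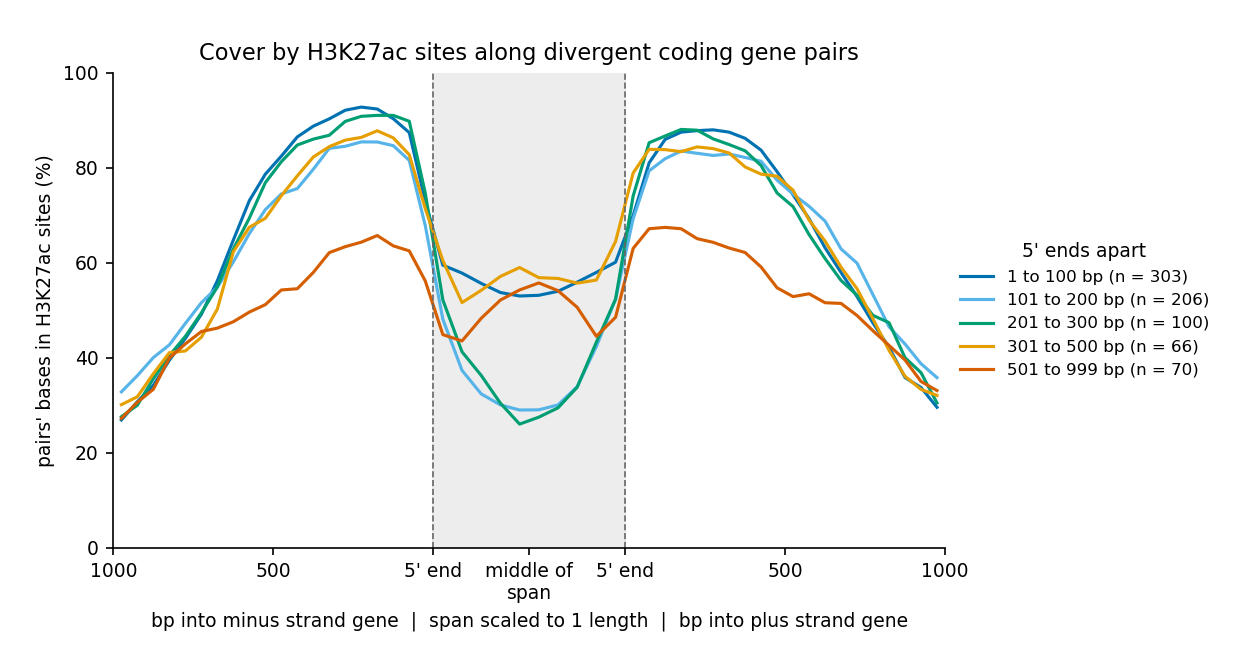
Percent of bases in H3K27ac sites along divergent pairs, in bins of 50 bp inside the minus strand gene (left) and plus strand gene (right) and in 10 equal parts of the span between the dashed 5′ ends (shaded), 1 line for each class of distance, for pairs with a span of at least 10 bp. The lines for 101 to 200 and 201 to 300 bp have a single trough, reaching 29.0% and 26.0%, and that for 501 to 999 bp has a trough at each 5′ end.

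At 317 of the 365 pairs with sites in both genes but no site holding both ends, the middle of the span lay in a bare stretch between neighbouring sites. This stretch was 195 ± 131 bp long (SD, n = 317 pairs; median 163 bp, quartiles 109 and 228 bp), and 216 of them (68.1%, 62.8 to 73.0) measured 100 to 300 bp. By comparison, of the 60446 gaps of up to 1000 bp between neighbouring sites anywhere in the list, 44.5% measured 100 to 300 bp, with a median of 247 bp. The edges lay close to the 5′ ends: the stretch reached 14.5 ± 71.5 bp into the minus strand gene and 18.3 ± 94.1 bp into the plus strand gene. Both 5′ ends lay within the bare stretch at 118 pairs (37.2%), 1 of them at 127 (40.1%) and neither at 72 (22.7%). In the closest pairs it reached 44.9 and 54.5 bp into the genes, whereas at 201 to 300 bp it stopped 12.3 and 7.32 bp short of them, and its mean length went from 162 bp (1 to 100 bp apart) to 225 bp (201 to 300 bp apart). A stretch of this size is near the 200 bp of the narrowest site in the list, and its edges depend on the peak caller.

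Named pairs illustrate each arrangement. Between Brca1, a gene of homologous recombination, and Nbr1, an autophagy receptor gene, 194 bp apart on chromosome 11, sites of 530 and 571 bp were separated by a bare stretch of 180 bp that held the 5′ end of Brca1, and the site over the 5′ end of Nbr1 began near the middle of the span. The DNA damage kinase gene Atm and Npat, which encodes a coactivator of histone genes, had 5′ ends 307 bp apart at chr9:53536740-53537047. Sites of 811 and 908 bp covered 84.9% of the 1 kb in the 2 genes and 7.19% of the span, leaving 323 bp bare. Mrps12 and Sars2 had 96 bp bare between sites that reached over both 5′ ends.

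At other pairs sites covered most or all of the span. In Mcm4, a replicative helicase subunit gene, and Prkdc, encoding the DNA-dependent protein kinase, 466 bp apart, 75.3% of the span and 66.1% of the 1 kb beside lay in sites. One site of 2202 bp held both ends of Osgep, a tRNA modification gene, and Apex1, the abasic site endonuclease gene, and it covered 1000 bp of the 1 kb in Apex1 and 696 bp in Osgep. Likewise, a site of 2301 bp held both ends of Trp53 and Wrap53, which encodes a telomerase holoenzyme protein, with 1000 bp covered in Trp53 and 482 bp in Wrap53. The basement membrane collagen genes Col4a3 and Col4a4, 72 bp apart, had no site in either gene or between them. Other pairs often cited as divergent, among them Hspd1/Hspe1 and Surf1/Surf2, were no members because their annotated 5′ ends overlapped, by 111 and 163 bp in these 2, and Col4a5/Col4a6 were 1309 bp apart.

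**Figure D4:**
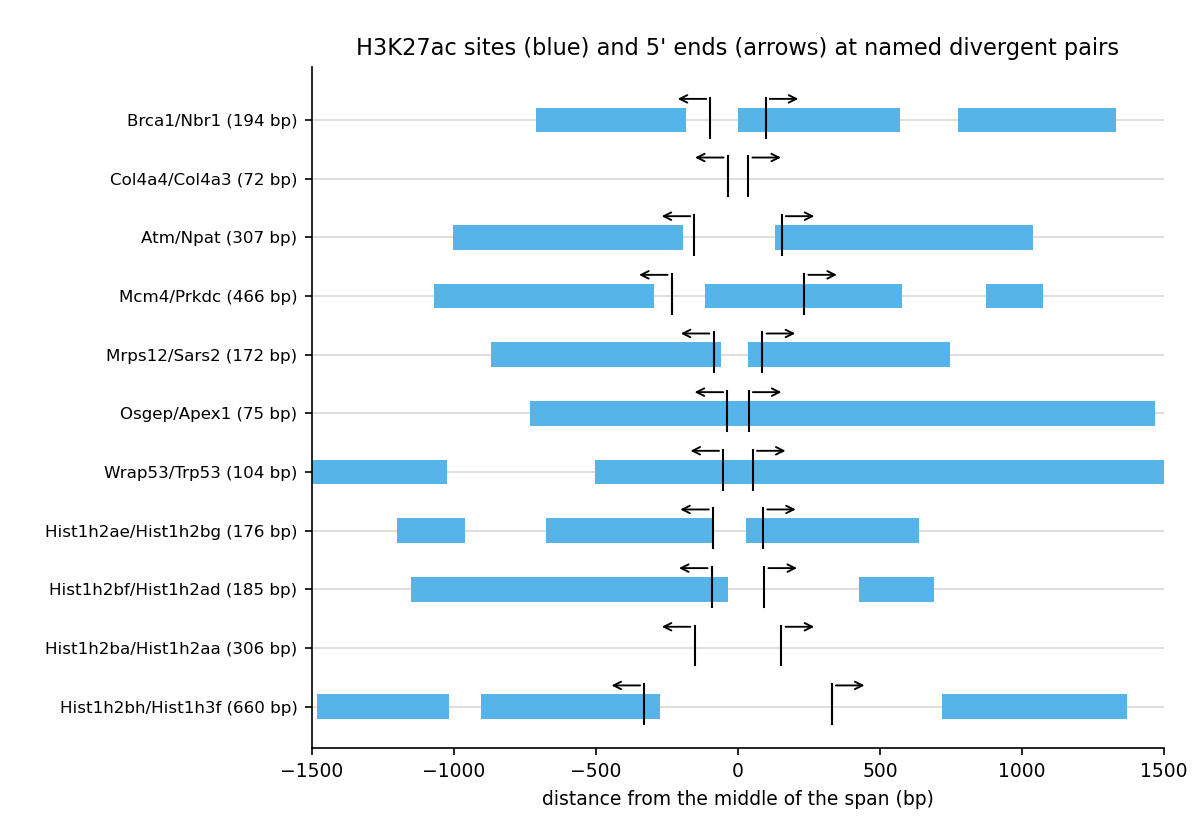
H3K27ac sites (blue bars) and 5′ ends with the direction of transcription (black arrows) at 7 textbook pairs and 4 pairs of histone genes, to scale around the middle of the span (bp), with the distance of the 5′ ends in brackets. Bare stretches between sites are seen for example at Atm/Npat (323 bp) and Mrps12/Sars2 (96 bp), single sites over both ends at Osgep/Apex1 and Wrap53/Trp53, and no site at Col4a4/Col4a3 and Hist1h2ba/Hist1h2aa.

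The widest sites holding both ends were at Dok1/Loxl3 (12957 bp, chromosome 6), Odf3l1/Cspg4 (9124 bp, chromosome 9) and P3h4/Fkbp10 (7107 bp, chromosome 11). Loxl3 encodes a lysyl oxidase and Cspg4 the NG2 proteoglycan of the cell surface, and P3h4 and Fkbp10 act on collagen in the endoplasmic reticulum. In contrast to the typical pair, none of these 3 had CpG-rich windows at both ends. Over all 271 pairs of this arrangement the median width of the site was 1714 bp (quartiles 1382 and 2142 bp), and 85 sites exceeded 2000 bp. Of pairs with a bare span of at least 200 bp, the most cover beside was found at Nop14/Grk4 (95.9% beside, 271 bp bare), Mob3a/Izumo4 (92.8%, 350 bp) and Xrcc3/Zfyve21 (86.1%, 319 bp), which include the ribosome biogenesis gene Nop14 and the recombination gene Xrcc3.

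Among pairs with a site in 1 gene only, Fam219a and Dnaic1, the latter a gene of ciliary dynein, had 951 bp covered in Fam219a and 0 bp in Dnaic1. The closest pairs with a site, Bag4/Lsm1 and Slc7a6os/Prmt7, had adjacent 5′ ends 1 bp apart within 1 site of 878 and 2028 bp. The most distant, Btf3l4/Txndc12 (987 bp) and Zfyve26/Rad51b (978 bp), differed, with 1 site of 3300 bp over both ends of the former and 4 sites of 203 to 717 bp at the latter. Near the limit of the rule, the 11 pairs 900 to 999 bp apart had 37.3% cover between and 36.0% beside, and the 12 pairs 1000 to 1099 bp apart 41.6% and 54.4%.

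Replication-dependent histone genes, which are transcribed in S phase and lack polyadenylation, were frequent among the pairs: 27 of the 67 annotated (40.3%) were members, compared with 6.78% of coding genes, and formed 14 pairs, of which 13 joined 2 histone genes. Sites were found at 11 of the 14 pairs. All 11 had sites in both genes, against 91.6% of all pairs with a site. None of the 14 pairs had both ends in 1 site, against 35.9% of all pairs and 23.0% of those 201 to 300 bp apart. That class holds the median distance of histone pairs (259.5 bp). Over the 14 pairs the median cover was 23.9% between and 67.5% beside, against 34.1% and 71.9% over all pairs. Between Hist1h2ae and Hist1h2bg 113 bp were bare, while between Hist1h2bf and Hist1h2ad the bare stretch was 459 bp and 267 bp of the Hist1h2ad side were covered. The most distant, Hist1h2bh/Hist1h3f (660 bp), had 992 bp bare and 8.19% of its span covered. Of the 3 pairs without a site, Hist1h2ba/Hist1h2aa, the testis variants, lay 83807 bp from the nearest site, and Hist1h2bq/Hist1h2ao and Hist1h2ap/Hist1h2br lay 1611 and 1640 bp from one, the latter 2 being named after their values were seen. Histone genes of this cluster have near-identical copies. The study's methods report that unusable reads were filtered following Encode advice but do not name reads with several matches, so the values of these genes are uncertain.

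Genes of DNA replication and repair were also common, with 39 of 135 (28.9%) in 40 pairs. All 40 pairs had a site, against 92.0% of all pairs. Separate sites in both genes were found at 29 and both ends in 1 site at 9, against 48.4% and 35.9% of all pairs, and the median cover was 17.7% between and 67.2% beside. Examples are Trmt6/Mcm8, with the span bare and 604 and 378 bp covered beside it, and Pms1/Ormdl1, with 10.5% of the span and 40.5% of the sides covered. Of mitochondrial ribosome, import and respiratory chain genes, 47 of 207 (22.7%) were members, in 46 pairs. All 46 pairs had a site, 27 (58.7%) with separate sites in both genes and 16 (34.8%), close to the share of all pairs, with both ends in 1 site, and the medians were 38.9% between and 71.1% beside. Mitd1/Mrpl30 and Fam126b/Ndufb3 had both ends in 1 site, of 1059 and 1477 bp, and at Atp5c1/Kin, with the ATP synthase gamma subunit gene, 77 bp were bare.

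The 9 pairs with a cytosolic ribosomal protein gene (9 of 92 genes, 9.78%, against 6.78% of coding genes) all had a site, against 92.0% of all pairs. Separate sites in both genes were found at 4 (44.4%) and both ends in 1 site at 3 (33.3%), close to the 48.4% and 35.9% of all pairs. Their medians were 16.7% between and 81.0% beside, against 34.1% and 71.9% over all pairs. Rps27/Rab13 and Rpl9/Lias had both ends in 1 site, and in both the 1 kb of the ribosomal protein gene was wholly covered while the partner had 620 and 649 bp. At Med22/Rpl7a the span was covered to 3.49%, between sites of 1809 and 1815 bp. Of zinc finger genes named Zfp or Zkscan, 21 of 427 (4.92%) were in pairs. Sites were present at 18 of their 19 pairs, against 92.0% of all pairs. Both ends lay in 1 site at 9 of the 19, against 35.9%, and the median cover between was 86.0%, against 34.1%. The examples ranged from Zfp408/Arhgap1, wholly covered, through Zfp661/Mrps5, covered in 67.7% of the span and 0 bp of Zfp661, to Zfp142/Bcs1l, with the span bare. Genes of sensory and epithelial tissues were nearly absent from the pairs, with 2 of 1519 chemosensory receptor genes and none of 213 defensin, keratin and late cornified envelope genes. Of these 2, Tas1r1 had 0 bp covered beside 977 bp in its partner Nol9, and Vmn1r4 had 621 bp covered, beside 538 bp in Nt5c3. The lists were chosen with results of these data known, and their counts are descriptions.

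Pairs differed from other coding genes in base composition. CpG-rich windows, with at least 50% GC and a CpG observed to expected ratio of at least 0.6 in the 1000 bp around the 5′ end, were found at 1224 of 1487 genes of pairs (82.3%, 80.3 to 84.2) and at 8513 of 20451 other coding genes (41.6%, 41.0 to 42.3). Of 592 pairs with both windows CpG-rich, 576 (97.3%, 95.7 to 98.3) had a site, compared with 52 of 59 (88.1%, 77.5 to 94.1) with 1 such window and 66 of 103 (64.1%, 54.5 to 72.7) with none. Composition moved with the presence of a site: the mean CpG ratio was 0.79 at pairs with both ends in 1 site, 0.77 at pairs with a bare span between sites and 0.46 at pairs without a site. Among genes with CpG-rich windows 96.8% of genes of pairs had a site, against 83.0% of the genes outside pairs, 80.8% of 5156 single genes, which have no other gene's 5′ end within 5 kb, 88.8% of 641 genes divergent from a non-coding gene and 90.1% of 282 genes of coding pairs 1 to 5 kb apart. These differences were 13.8 (12.4 to 14.9), 16.0 (14.5 to 17.4), 8.05 (5.55 to 10.9) and 6.74 (3.56 to 10.9) points. The intervals take partners as independent genes, so they are too narrow and are no test. Without a CpG-rich window 69.2% of genes of pairs had a site, against 24.1% of genes outside pairs, a difference of 45.1 points (39.2 to 50.4), and 35.0% of genes of coding pairs 1 to 5 kb apart. In these shares a gene of a pair can count a site that lies at its partner, so the differences do not compare single promoters.

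Single genes also showed a dip upstream of the 5′ end, but with a smaller rise upstream of it than genes of pairs. Among genes with CpG-rich windows, with or without a site, the dip was deepest at 51 to 100 bp upstream in each group. It was at 51.7% of bases in genes of pairs, 44.0% in genes divergent from a non-coding gene, 41.1% in genes of coding pairs 1 to 5 kb apart and 40.9% in single genes. Upstream of it cover rose to 89.4% at 351 to 400 bp in genes of pairs and to 53.7% at 251 to 300 bp in single genes. In the first kilobase upstream, which in pairs contains the partner gene, 72.8% of bases lay in sites at genes of pairs with a site, whatever their composition. This compares with 56.3% at genes divergent from a non-coding gene, 42.6% at genes of coding pairs 1 to 5 kb apart and 41.0% at single genes. In the first kilobase inside the gene, genes of pairs with a site were instead the lowest, with 71.7% against 80.9%, 75.7% and 76.7%. This rank holds only among genes with a site, which a gene of a pair can have through its partner. Over all genes, with or without a site, genes of pairs were the highest, with 65.9% against 61.1%, 41.8% and 32.9%. Inside CpG-rich genes of pairs, with or without a site, cover reached 92.6% at 150 to 199 bp and fell to 33.4% at 950 to 999 bp. In single genes it was 78.2% and 41.2%. Over all these genes, cover in pairs was thus higher near the 5′ end and lower at the far end of the kilobase. Genes without a site count as bare here, and 96.8% of the genes of pairs but 80.8% of the single genes had a site. The higher cover near the 5′ end includes this difference and was not measured among genes with a site alone. A bare position at 50 bp upstream between sites on either side was found at 521 of 1185 CpG-rich genes of pairs with a site (44.0%, 41.2 to 46.8), 232 of 569 genes divergent from a non-coding gene (40.8%, 36.8 to 44.9), 81 of 254 genes of coding pairs 1 to 5 kb apart (31.9%, 26.5 to 37.9) and 1168 of 4165 single genes (28.0%, 26.7 to 29.4), and the median length of that bare stretch was 161, 163, 178 and 159 bp.

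**Figure D5:**
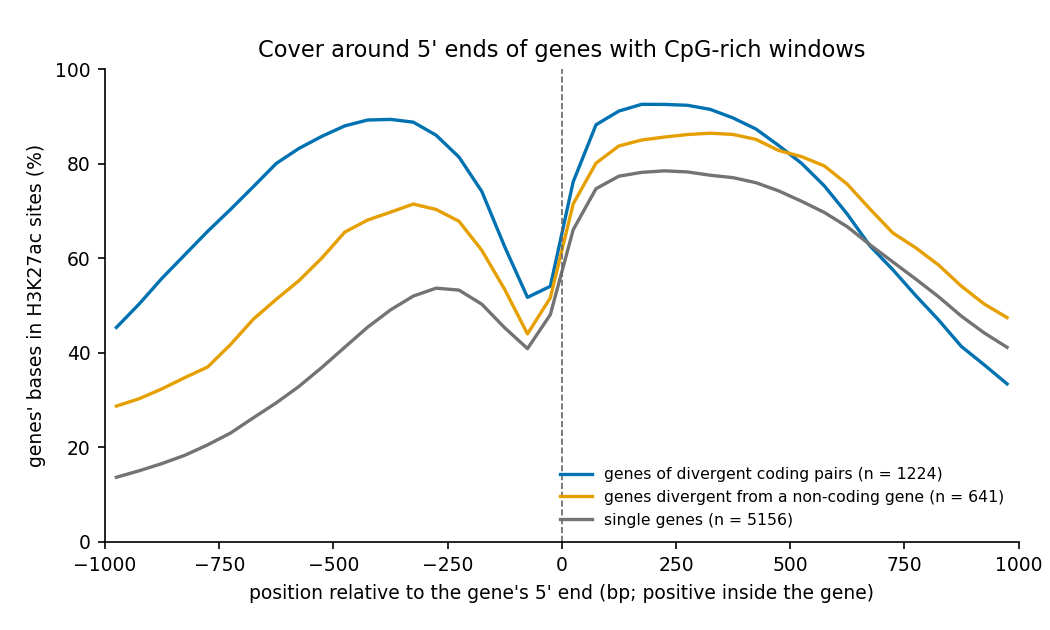
Percent of bases in H3K27ac sites in bins of 50 bp from 1000 bp upstream (negative) to 1000 bp inside the gene, for genes with CpG-rich windows in divergent coding pairs, divergent from a non-coding gene, and single. Genes without a site are included. All 3 lines dip just upstream of the 5′ end, and upstream of the dip the line of the pairs lies highest, with 88.8% at 301 to 350 bp.

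Short letter motifs were counted on both strands in the 300 bases from 250 before to 50 after each 5′ end. In partners under 500 bp apart these windows overlap, so that 1 match can count for both genes. Among CpG-rich genes, the ETS letters CCGGAAG were found in 29.7% of genes of pairs and 15.4% of single genes (difference 14.2 points, 11.5 to 17.0), the NRF1 letters GCGCANGCG in 23.1% and 14.7% (8.46 points, 5.98 to 11.1), and CCAAT in 44.9% and 36.6% (8.24 points, 5.17 to 11.3). Against genes of coding pairs 1 to 5 kb apart the difference was 11.9 points for CCGGAAG (6.44 to 16.7) and 5.75 for GCGCANGCG (0.39 to 10.4), but for CCAAT it was 0.88 (-5.58 to 7.21), and 3.82 (-0.92 to 8.50) against genes divergent from a non-coding gene. The YY1 letters AAGATGGC were present in 9.31% of genes of pairs and 3.63% of single genes, and TCTCGCGA in 5.64% and 2.21%. Against genes of coding pairs 1 to 5 kb apart these differences were 2.58 (-1.27 to 5.54) and 2.80 points (-0.10 to 4.80). Against genes divergent from a non-coding gene they were 4.63 (2.19 to 6.87) and 2.83 points (0.86 to 4.59). The Sp1 letters GGGCGG were found in 73.1% of genes of pairs and 73.8% of single genes (difference -0.64 points, -3.45 to 2.06). The difference was -4.41 points (-8.40 to -0.26) against genes divergent from a non-coding gene and 6.81 (0.96 to 13.0) against coding pairs 1 to 5 kb apart. TATAAA was found in 3.59% of genes of pairs and 6.11% of single genes (difference -2.51 points, -3.65 to -1.17). Over all promoters of coding genes of this length irrespective of composition, 10.8% held CCGGAAG, 8.30% GCGCANGCG, 39.0% CCAAT and 12.6% TATAAA.

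Chromosome X departed from the autosomes. Of its 20 pairs 12 had a site (60.0%, 38.7 to 78.1), compared with 682 of 734 autosomal pairs (92.9%), and none had both ends in 1 site (0%, 95% Wilson interval up to 16.1%), compared with 271 of 734 (36.9%, 33.5 to 40.5). At 11 of these 12 pairs sites lay in both genes, and cover was 8.52% between and 42.6% beside. Fewer pairs on chromosome X had both windows CpG-rich (10 of 20, against 582 of 734). Within such pairs 0 of 10 on chromosome X and 240 of 582 on autosomes had both ends in 1 site (difference -41.2 points, -45.3 to -13.2). Coding genes at large also had sites less often on chromosome X, in 35.3% against 52.8% (difference -17.4 points, -20.5 to -14.3), and among CpG-rich coding genes in 78.8% against 84.9% (-12.0 to -1.29 points). Among CpG-rich coding genes outside pairs, 79.0% on chromosome X and 83.2% on autosomes had a site, an interval of the difference that includes 0 (-10.3 to 0.95 points). The cause was not tested.

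Finally, 60 pairs had no site, and 16 of them had CpG-rich windows at both ends. The shortest of these were Pcmt1/Lats1 (78 bp apart, with the Hippo kinase gene Lats1), Mfsd8/Abhd18 (84 bp) and Nfya/Oard1 (108 bp, with the gene of an NF-Y subunit). Their nearest sites in the list lay 99067, 102327 and 495248 bp away, and 9 of the 16 pairs lay over 50 kb from any site, with a median of 61679 bp. For the 37 pairs without CpG-rich windows and without a site that median was 19894 bp. In such stretches an absence of H3K27ac and an incomplete list cannot be told apart. Also among the 16 were the 3 histone pairs given above and the imprinted pair Peg3/Usp29, which was named after its values were seen and lay 331339 bp from the nearest site.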

How the data were processed

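The deposited list, made by the authors from 12 H3K27ac ChIP-seq libraries, holds chromosome, start and end of each site. Per the labels and the study's methods, reads were aligned with BWA to mm10, replicates were merged and narrow peaks were called with MACS2. The threshold and the way the peaks of all samples were joined were not given in the sources used here. Whether the input libraries served as control in peak calling was not given either, and they enter no value here in another way.

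Starts were read as counted from 0 and are printed from 1. The 5′ end of a gene was its outermost annotated base in GENCODE M21, which may differ from the start site used in fibroblasts. Spans and windows were read from the RefSeq copy of GRCm38.p6. Cover, arrangements, CpG windows and motifs were computed with Python 3.11.15, numpy 2.4.6, pandas 2.3.3, scipy 1.17.1 and pysam 0.24.0. The pair search was tested on simulated positions.

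Named pairs were the textbook pairs, the 2 closest and 2 most distant pairs of histone genes, the widest sites over both ends, the longest covered sides of bare spans of at least 200 bp and of 1-sided pairs, the shortest CpG-rich pairs without a site, the distance extremes, and up to 3 pairs of each list in chromosome order. The pairs, lists and measures were chosen with earlier results of these data known. Some pairs that met these rules are not reported here. Lists were matched by symbol. After their members were read, the Rps6k kinases were taken out of the ribosomal protein list and Sdha to Sdhd added to the mitochondrial list.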

Additional observations from a re-analysis of the deposited data

How the results depend on the processing

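All 6 values were recomputed under 9 alternatives to the rule. A further 3 alternatives, added after seeing the data, were each applied to only some of the 6, which gave 64 values in all. Cover between minus beside was negative in 11 of 12 and reversed to 8.07 points with 2 kb flanks, where cover beside was 39.6%. With 500 bp flanks cover beside was 81.5% and the difference -33.8 points. With a stretch as long as the span (added) they were 75.0% and -27.3 points. Joining sites under 150 bp apart raised cover between to 63.2%, pairs with both ends in 1 site to 58.2% and the difference to -3.46 points, so the bare stretch depends on how close calls were kept apart. With 5′ ends from coding transcripts of support level 1 (646 pairs), 94.7% had a site and 87.6% a site beside each end. The latter was 87.0% for the 684 pairs under 500 bp apart and, by construction, 91.6% of pairs with a site (added). The other 51 values moved by less than the spread between chromosomes or stayed within the main interval, including those on autosomes only (cover between 48.8%, difference -17.7 points). No paired analysis was possible because sites carry positions alone, without values for single libraries. The depth of the libraries cannot be read from positions, and a bare base is one without a called peak, not one without H3K27ac.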
